A study of Mus musculus with 2 samples.

Results

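The SR splicing factors are RNA-binding proteins with a domain rich in serine and arginine, and this account covers their 10 genes Srsf1, Srsf2, Srsf3, Srsf4, Srsf5, Srsf6, Srsf7, Srsf9, Srsf10 and Srsf11 in mouse gut tissue. The genes were taken by symbol from a fixed list, and all 10 were found among the 43346 genes of the tables. Their 67 annotated transcripts, of 103639 transcripts of genes, comprised 12 typed nonsense_mediated_decay, 18 typed retained_intron, 12 typed processed_transcript and 25 typed protein_coding. Of these, 54 had a level above 0 in both libraries. These types are the annotation's own classes: retained_intron transcripts keep intron sequence, and processed_transcript is a class with no annotated reading frame.

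SR proteins bind short exonic sequences through an RNA recognition motif and recruit spliceosome components to nearby splice sites through their arginine- and serine-rich domain, whose phosphorylation by SRPK and CLK kinases sets their location and activity. Most SR genes carry a poison exon, a cassette exon that brings a premature stop codon into the mRNA when it is spliced in. A stop codon that lies well upstream of the last exon junction marks an mRNA for nonsense-mediated decay, and several SR proteins are known to promote the poison exon of their own mRNA and so to limit their own level.

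PolyA-selected RNA longer than 200 nt, depleted of rRNA, was sequenced as stranded paired reads of 76 nt from tissue of C57BL/6J mice, an inbred strain, at 8 weeks of age. The labels give 1 group, large intestine, with 2 biological replicates that are separate biosamples under a single donor record, each labelled as a pool of male and female littermates. Replicate 1 had 50189619 expected counts, 59702 of them on the 10 SR genes, and replicate 2 had 58233142, with 59439 on the SR genes. There is no other condition to compare with, and setting 1 library against 1 library allows no test, so errors below are the SD over both libraries (n = 2), which measures the spread between these libraries only.

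The markers matched the tissue label only in part. Of 8 colonocyte genes 3 were well expressed: Guca2a was at 1199 TPM (a level scaled to transcript length and to a fixed library total) in replicate 1 against 1407 in replicate 2, Car4 at 117 and 141 TPM, and Slc26a3 at 43.5 and 20.96 TPM. The other 5, Car1, Aqp8, Atp12a, Scnn1b and Scnn1g, were at 0.27 TPM or below in each library. The 4 Paneth cell genes, markers of small intestine crypts, summed to 7441 TPM in replicate 1, against 10816 in replicate 2. Small intestine markers stood far apart: the jejunal lactase gene Lct was at 152 TPM in replicate 1, against 9.94 TPM in replicate 2, while Fabp6, which encodes an ileal binding protein for bile acids, was at 477 and 5279 TPM. Xist, transcribed from the inactive X chromosome of females, was at 0.02 TPM in replicate 1, against 20.4 TPM in replicate 2, although both are labelled as pools of both sexes. The part of these differences in the values below was not tested, so a difference between the libraries is not read here as a difference between replicates of 1 tissue.

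The sequences below are the intervals that end an SR reading frame early in the transcripts the results turn on, read 5′ to 3′ on the transcript from the GENCODE M21 models on mm10. Each runs from the first base that the coding transcript lacks to the in-frame stop codon, which is in capitals. The intervals in Srsf3, Srsf6 and Srsf11 open poison exons, that in Srsf5 opens an alternative last exon, and those in Srsf10 and Srsf1 are intron sequence read straight through from a coding exon.
Srsf3-201, chr17:29039454-29039487, plus strand: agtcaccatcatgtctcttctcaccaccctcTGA
Srsf6-201, chr2:162932815-162932966, plus strand: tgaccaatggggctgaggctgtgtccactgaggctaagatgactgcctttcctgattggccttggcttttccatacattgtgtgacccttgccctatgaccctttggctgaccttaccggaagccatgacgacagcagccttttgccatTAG
Srsf11-206, chr3:158024209-158024231, minus strand: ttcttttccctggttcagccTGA
Srsf11-212, chr3:158023310-158023359, minus strand: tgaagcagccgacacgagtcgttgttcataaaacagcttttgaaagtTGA
Srsf5-206, chr12:80948129-80948179, plus strand: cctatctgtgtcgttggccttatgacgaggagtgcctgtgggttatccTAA
Srsf10-210, chr4:135858410-135858449, plus strand: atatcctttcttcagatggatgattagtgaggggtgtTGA
Srsf1-206, chr11:88048675-88048817, plus strand: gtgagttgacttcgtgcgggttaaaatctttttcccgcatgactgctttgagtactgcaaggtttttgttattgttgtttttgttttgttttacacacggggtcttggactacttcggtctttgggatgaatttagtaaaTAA

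All 10 SR genes were expressed above 1 TPM in both libraries, and the level of the most abundant differed widely from that of the least. Srsf2, a protein of nuclear speckles (ENSMUSG00000034120.14, chromosome 11, 116849901 to 116853094, mm10, minus strand), was at 322 TPM in replicate 1, against 217 TPM in replicate 2, a mean of 269 ± 74.3 (SD, n = 2). Srsf5 (ENSMUSG00000021134.13, chromosome 12, 80945504 to 80950507, plus strand) was at 220.3 TPM in replicate 1, against 134 TPM in replicate 2, so its higher value exceeded the lower value of Srsf2. Together they made up 58.4% of the summed SR TPM in replicate 1 and 52.6% in replicate 2. Srsf11, a family member found associated with U2AF (ENSMUSG00000055436.14, chromosome 3, 158010473 to 158036639, minus strand), followed with 115 TPM in replicate 1, against 83.6 TPM in replicate 2. Its range lay apart from those of Srsf5 above and Srsf1 below.

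Srsf1, a prototype of the family (ENSMUSG00000018379.13, chromosome 11, 88047373 to 88053755, plus strand), was at 62.4 TPM in replicate 1, against 46.0 TPM in replicate 2. Srsf6 (ENSMUSG00000016921.10, chromosome 2, 162931528 to 162937121, plus strand) was at 51.5 and 46.8 TPM in replicates 1 and 2, and Srsf3, the smallest SR protein (ENSMUSG00000071172.8, chromosome 17, 29032628 to 29043373, plus strand), at 47.8 and 34.8 TPM. Srsf10, which turns into a splicing repressor when dephosphorylated (ENSMUSG00000028676.13, chromosome 4, 135855747 to 135869908, plus strand), was at 38.5 and 29.0 TPM, and Srsf4 (ENSMUSG00000028911.12, chromosome 4, 131873617 to 131901706, plus strand) at 30.7 and 32.8 TPM. The ranges of each neighbouring pair in this order, Srsf1 with Srsf6, Srsf6 with Srsf3, Srsf3 with Srsf10 and Srsf10 with Srsf4, overlapped, so their order is not larger than the spread between the libraries. Srsf9 (ENSMUSG00000029538.9, chromosome 5, 115327177 to 115333080, plus strand) was at 23.6 and 23.7 TPM, and Srsf7, which has a zinc knuckle beside its RNA recognition motif (ENSMUSG00000024097.10, chromosome 17, 80200080 to 80207307, minus strand), was lowest at 16.3 and 18.6 TPM; neither range overlapped that of its neighbours. Among the 13512 genes with a mean of at least 1 TPM, the SR genes lay between the 62.0th percentile (Srsf7) and the 96.7th percentile (Srsf2).

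The order changed when only transcripts typed protein_coding were counted. Srsf3 kept 7.78 TPM of coding transcripts in replicate 1 and 9.02 TPM in replicate 2, and moved from rank 6 by total level to rank 9 by coding level. Srsf10, at 8.29 TPM of coding transcripts in replicate 1 and 7.92 TPM in replicate 2, moved from rank 7 to rank 10, and Srsf6, at 17.2 and 16.0 TPM, from rank 5 to rank 8. Srsf4, Srsf9 and Srsf7 moved up to ranks 5, 6 and 7, with mean coding levels of 28.2 ± 2.72, 23.2 ± 0.566 and 17.4 ± 1.60 TPM (SD, n = 2). Srsf2, Srsf5, Srsf11 and Srsf1 kept ranks 1, 2, 3 and 4. Among neighbours by coding level, the ranges of Srsf5 with Srsf11, Srsf1 with Srsf4, Srsf7 with Srsf6 and Srsf3 with Srsf10 overlapped. The order within each of these pairs is not larger than the spread between the libraries. Srsf7 has a single quantified transcript, so its whole TPM counts as coding.

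**Figure D1:**
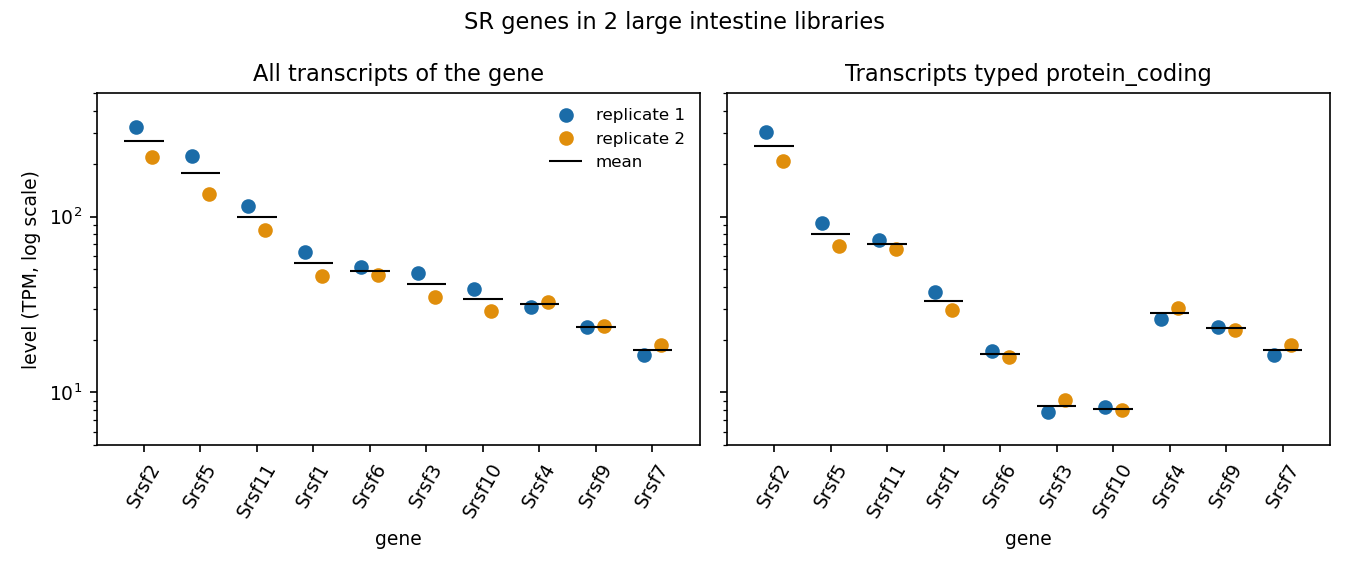
Level of each SR gene in replicate 1 (blue, left) and replicate 2 (orange, right) in TPM on a log axis, over all transcripts (left panel) and over transcripts typed protein_coding (right panel), with the mean of both libraries as a line. Genes are ordered by total level in both panels, so the dip at Srsf6, Srsf3 and Srsf10 on the right shows the 3 genes with the smallest coding shares.

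Of each SR gene's TPM, a median of 38.3% lay outside transcripts typed protein_coding, over the 9 SR genes with both kinds of transcript and at least 5 TPM, against a median of 12.4% over the 5495 genes chosen in the same way. In 4 SR genes this share exceeded 50% on average (Srsf3, Srsf10, Srsf6 and Srsf5), against 17.6% of those 5495 genes. In replicate 1 the 4 genes were over that limit, and in replicate 2 Srsf5 lay just under it, at 49.5%. Transcripts typed nonsense_mediated_decay made up a median of 6.78% of an SR gene, over the 7 genes with such a transcript, against 3.08% over 1822 genes; by expected counts the SR median was 2.53%. Their share was at least 10% in 3 of the 7 (Srsf3, Srsf6 and Srsf11), against 31.0% of those 1822 genes, a share near the background. Transcripts typed retained_intron made up a median of 18.8% of an SR gene, over the 7 genes with one, against 6.65% over 3868 genes, and reached 10% or more in 5 of the 7 (Srsf1, Srsf3, Srsf5, Srsf6 and Srsf11), against 42.0% of the background genes. The shares are fractions of molecules by TPM, which gives short transcripts more weight than their reads have. As a share of expected counts, 3 SR genes were over 50% outside coding transcripts (Srsf3, Srsf6 and Srsf5), Srsf10 was at 33.8% and Srsf1 dropped to 12.1%, against 38.3% by TPM.

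**Figure D2:**
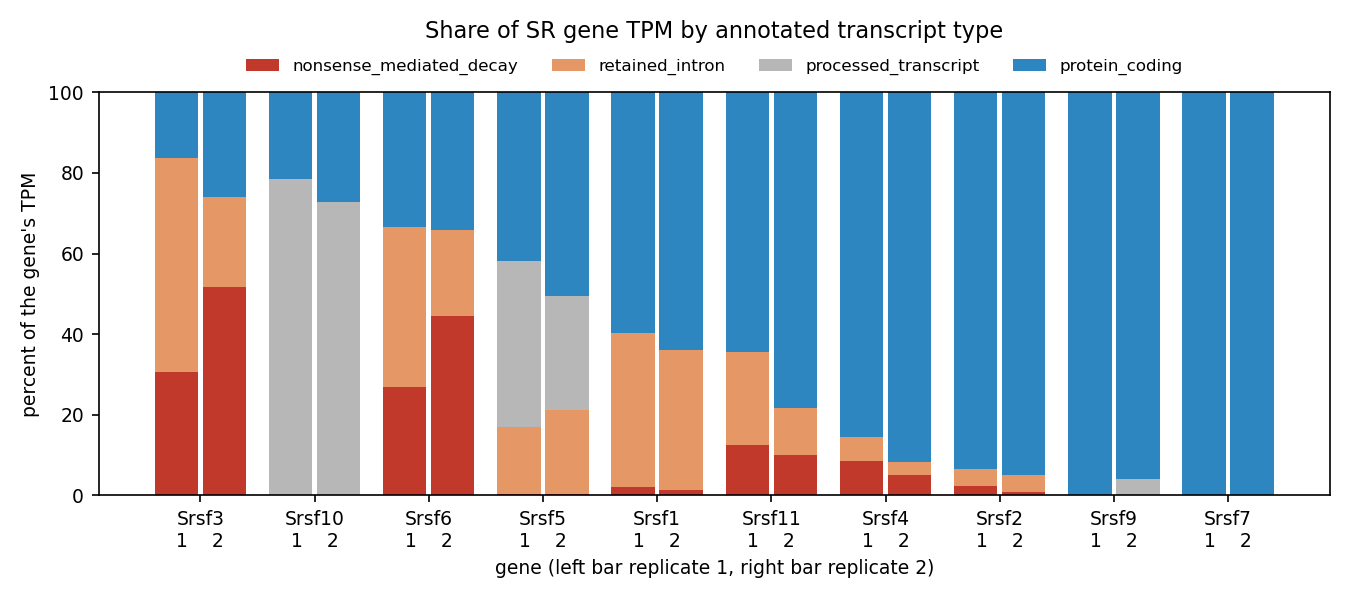
Percent of each SR gene's TPM in transcripts of each annotated type, in replicate 1 (left bar) and replicate 2 (right bar) of each pair, with genes ordered by their coding share. Srsf3 has the smallest coding share, 16.3% in replicate 1 and 25.9% in replicate 2, and Srsf7, with a single transcript in the tables, is coding throughout.

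In Srsf3 the poison exon transcript was more abundant than the coding one in both libraries. Srsf3-201, typed nonsense_mediated_decay, was at 14.7 TPM in replicate 1 (deposited bounds 12.6 to 16.3), against 18.0 TPM in replicate 2 (16.4 to 19.3), or 30.7% and 51.8% of the gene. The coding transcript Srsf3-202 was at 7.78 TPM in replicate 1 (6.96 to 8.46), against 9.02 TPM in replicate 2 (8.29 to 9.68), or 16.3% and 25.9%. Srsf3-201 has an exon of 456 nt (chr17:29039454-29039909) that Srsf3-202 lacks. The in-frame stop of that exon ends at base 34, shown in capitals in the sequence above, with 548 nt between that stop and the last junction. As quantified, Srsf3-201 is 1919 nt long and Srsf3-202 2566 nt. The pair therefore also differs outside that exon, and its TPM is not divided by the exon alone. Of the Srsf3 TPM that spans the exon, transcripts with exactly this exon held 31.2% in replicate 1 and 52.3% in replicate 2. The mean was 41.7% ± 14.9 (SD, n = 2). The spanning TPM also holds Srsf3-203 and Srsf3-204, which contain the exon's sequence with intron sequence beside it. Both count here as not including the exon, so this percent also moves with intron retention. Srsf3-203, typed retained_intron, enters the same exon at the same 3′ splice site and ends in the intron after it, and was at 18.9 TPM in replicate 1 (16.1 to 21.6), against 4.33 TPM in replicate 2 (2.55 to 6.20). With that transcript counted too, 71.4% of the spanning TPM in replicate 1 and 64.8% in replicate 2 entered the poison exon. By TPM the libraries therefore lay closer in how much Srsf3 RNA used this 3′ splice site than in how the exon ended. Srsf3-203 is short, and by expected counts it held only 16.5% of the gene in replicate 1 and 4.40% in replicate 2. The exact exon was included in 32.2% and 46.1% of the spanning expected counts. Srsf3-204, which keeps the introns around the poison exon, added 11.9% of the gene in replicate 1 and 8.96% in replicate 2.

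Srsf6 had the same arrangement at a different level. Srsf6-201, typed nonsense_mediated_decay, was at 13.8 TPM in replicate 1 (deposited bounds 11.9 to 15.5), against 20.8 TPM in replicate 2 (18.9 to 22.3), beside 17.2 TPM (16.1 to 18.0) and 15.5 TPM (14.7 to 16.2) of the coding transcript Srsf6-203. Its poison exon of 268 nt (chr2:162932815-162933082) was included in 26.8% of the spanning TPM in replicate 1 and 44.5% in replicate 2, a mean of 35.7% ± 12.5 (SD, n = 2), and its stop ends at base 152, 534 nt before the last junction. The intron-retaining Srsf6-204, in which the intron holding the poison exon is kept whole, was at 20.4 TPM (19.1 to 21.6) in replicate 1 and 9.97 TPM (9.18 to 10.7) in replicate 2. Srsf6-204 is part of the spanning TPM and counts there as not including the exon. Thus the poison exon transcript was higher in replicate 2 and the intron-retaining one higher in replicate 1, while the coding share was 33.5% in replicate 1 and 34.1% in replicate 2. As a share of expected counts the exon's inclusion was 15.2% in replicate 1 and 27.9% in replicate 2. Srsf6-201 is 1666 nt long and Srsf6-203 3527 nt, so this pair too differs outside the poison exon.

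In Srsf2 the exon lies after the stop codon, and the transcript type hides it. Srsf2-206 is typed protein_coding and has the same introns as Srsf2-202, typed nonsense_mediated_decay, from which it differs by 10 bases at the ends. Both have the ordinary Srsf2 stop with 3 exon junctions after it, the last of them 217 nt downstream, whereas in Srsf2-201 a single junction follows, 7 nt downstream. Srsf2-206 was at 119 TPM in replicate 1, against 75.4 TPM in replicate 2, or 37.0% and 34.8% of the gene. Its bounds ran from 50.4 to 119 TPM in replicate 1 and from 26.8 to 76.6 TPM in replicate 2, far wider than those of Srsf2-201 (175 to 185 and 126 to 133 TPM), so the division between the pair of near-identical transcripts is poorly determined and their sum is the better measure. The cassette exon of 104 nt that both include (chr11:116851648-116851751, minus strand, 3′ untranslated region) was included in 39.1% of Srsf2 TPM in replicate 1 and 34.8% in replicate 2, a mean of 37.0% ± 3.06 (SD, n = 2), and in 29.9% and 26.3% of expected counts. On the opposite strand Srsf2 overlaps Mettl23 (16.5 TPM in replicate 1 and 18.4 in replicate 2) and Mfsd11 (20.6 and 14.9 TPM); the libraries are stranded, but whether strand was used in the counting is not stated. By type alone, Srsf2 would have 2.33% of its TPM in nonsense_mediated_decay transcripts in replicate 1 and 0.75% in replicate 2.

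**Figure D3:**
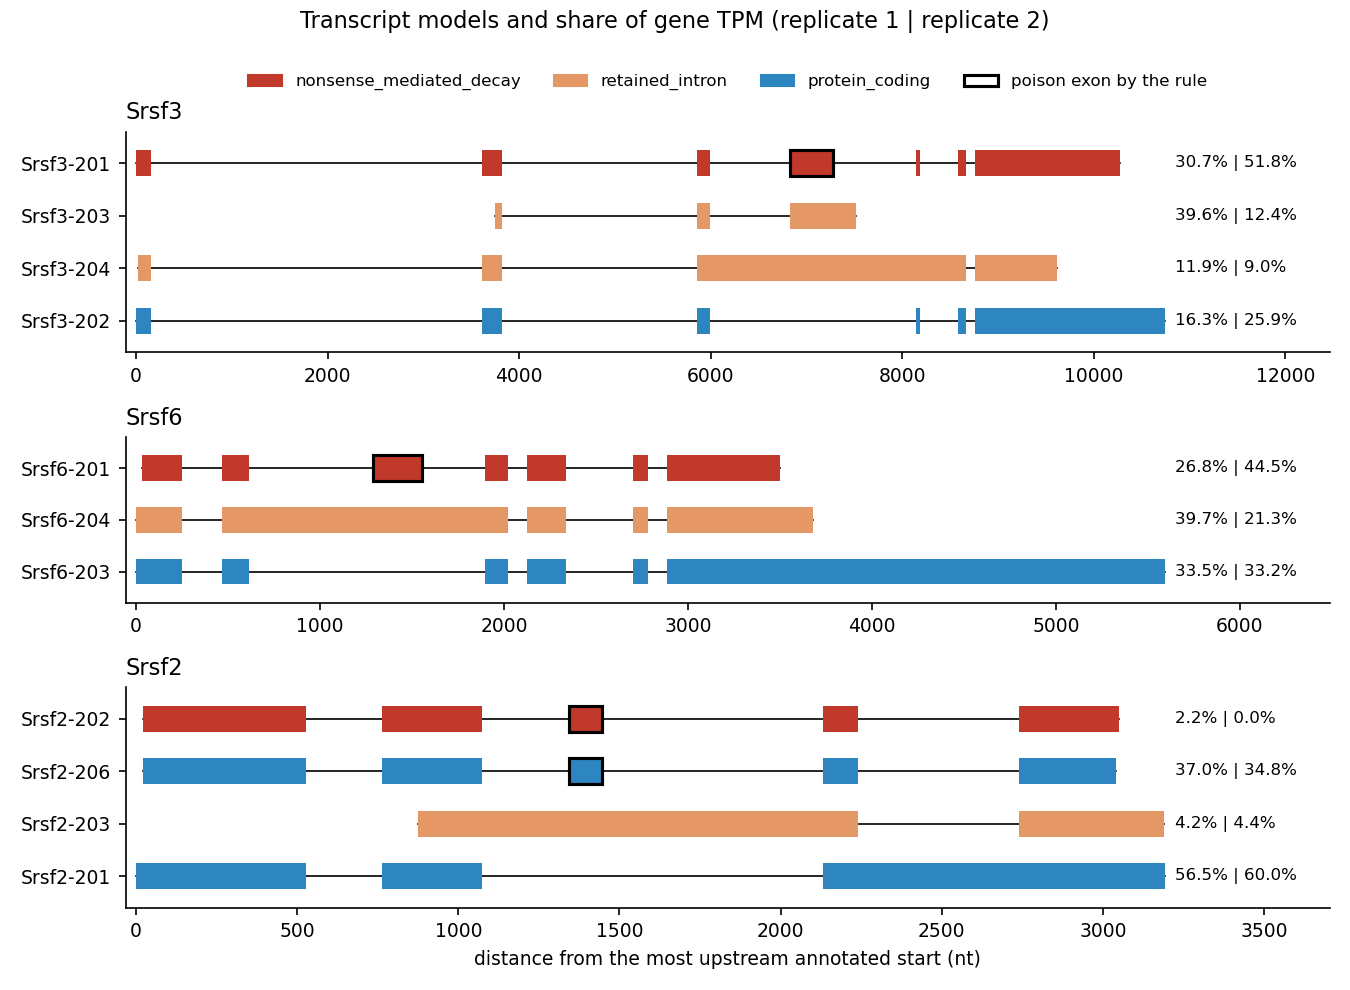
Exon models of the main transcripts of Srsf3, Srsf6 and Srsf2, drawn to scale from the most upstream start (x axis, nt, transcription left to right), coloured by annotated type, with poison exons outlined and the percent of gene TPM in replicate 1 and replicate 2 at the right. The outlined Srsf3 exon is also the start of the last exon of Srsf3-203, and the outlined Srsf2 exon stands in 1 transcript typed nonsense_mediated_decay and 1 typed protein_coding.

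Srsf11 and Srsf4 had several annotated poison exons each, at lower inclusion. The Srsf11 exons of 117 nt (chr3:158023243-158023359), 64 nt (chr3:158024698-158024761) and 109 nt (chr3:158024123-158024231), all on the minus strand, were included in 15.8%, 14.8% and 12.2% of the spanning TPM in replicate 1 and in 10.7%, 9.02% and 7.26% in replicate 2. By expected counts the mean inclusion of the exon of 117 nt was 5.80%, against 13.3% by TPM, and that of the exon of 109 nt 5.03%, against 9.72%, or 21.6% by TPM over all transcripts entering at its 3′ splice site. Inclusion of each exact exon was higher in replicate 1, and Srsf11-206, which holds the exons of 109 and 117 nt, was at 12.3 TPM in replicate 1 (deposited bounds 10.6 to 14.0), against 5.40 TPM in replicate 2 (4.46 to 6.37). The first bases of those 2 exons, 23 and 50 nt up to the stop, are among the sequences above. Srsf11-208, typed retained_intron and ending early in the gene, was at 9.59 TPM (8.84 to 10.2) in replicate 1 and 1.85 TPM (1.59 to 2.10) in replicate 2. The main coding transcript, Srsf11-201, was at 29.4 TPM (26.9 to 31.1) in replicate 1 and 25.8 TPM (23.7 to 27.4) in replicate 2, with overlapping bounds. Of the other transcripts with at least 5% of the gene, the coding Srsf11-209, Srsf11-204 and Srsf11-202 held 19.6%, 9.15% and 10% in replicate 1 and 25.1%, 13.1% and 9.33% in replicate 2, and Srsf11-203, which carries the exon of 64 nt, 13.4% and 8.77%. In Srsf11-203 itself the stop in the exon of 64 nt lies only 17 nt before the last junction. The distance was 937 nt when that exon was put into the reference coding transcript. Srsf4 was mostly coding: Srsf4-202 held 85.6% of the gene in replicate 1 and 91.8% in replicate 2. Its exon of 184 nt (chr4:131885309-131885492) was included in 8.43% of the spanning TPM in replicate 1 and 5.12% in replicate 2, mostly through Srsf4-204 (2.41 and 1.06 TPM), or in a mean of 2.53% by expected counts against 6.77% by TPM. Its exons of 207 and 198 nt were included in no more than 2.02% in either library. Srsf4-203 and Srsf4-204 nevertheless have the same stop, ending at base 131884390, inside the interval of the exon of 207 nt. It lies before the exon of 184 nt, so that exon does not supply the stop in either transcript. Transcripts with that stop held 8.42% of the gene in replicate 1 and 5.14% in replicate 2.

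In Srsf5, Srsf10 and Srsf1 the TPM outside coding transcripts lay mainly in short transcripts and retained introns, with few transcripts typed nonsense_mediated_decay. Srsf5-211, which joins the first exon to the second coding-transcript exon and ends in the intron after it, was at 50.5 TPM in replicate 1 (deposited bounds 46.4 to 53.7), against 20.4 TPM in replicate 2 (18.3 to 22.4). Srsf5-206, which ends in the alternative last exon shown above, was at 40.5 TPM (36.5 to 43.8) in replicate 1 and 17.5 TPM (15.3 to 19.7) in replicate 2. Both are typed processed_transcript and short, 538 and 886 nt, and both were over 2-fold higher in replicate 1. The main coding transcript Srsf5-201 was at 65.2 TPM (60.1 to 68.7) in replicate 1 and 43.2 TPM (39.7 to 46.0) in replicate 2, and the coding Srsf5-202 at 26.5 and 24.2 TPM. Srsf5-212, which keeps whole the intron that holds that last exon, held 15.8% of the gene's TPM in replicate 1 and 20.1% in replicate 2, and, being 2720 nt long, 34.0% and 38.0% of its expected counts.

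Srsf10-210, which reads from the second exon into the intron and ends there, held 69.8% of Srsf10 TPM in replicate 1 and 65.2% in replicate 2, at 26.9 and 18.9 TPM. At 677 nt it is far shorter than the coding transcripts (Srsf10-205 is 3754 nt), and its share of expected counts was 33.6% in replicate 1 and 27.5% in replicate 2. The exact Srsf10 poison exon of 360 nt (chr4:135858842-135859201) is listed at 0 in both libraries. Counting every transcript that enters at the same 3′ splice site, 24.6% of the spanning TPM did so in replicate 1 and 11.5% in replicate 2, through Srsf10-207, at 2.71 and 1.03 TPM. Its bounds overlapped between the libraries (1.14 to 4.74 and 0.161 to 2.75), and Srsf10-210 is not part of the spanning TPM. Srsf10-207 and Srsf10-201, which has the exact exon, both carry the stop of Srsf10-210. That stop lies before the exon, so the exon supplies the stop in neither transcript. In Srsf1, Srsf1-203 is typed retained_intron, starts in the last coding exon and holds the ordinary Srsf1 stop with an exon junction 489 nt after it. It was at 13.1 TPM (10.6 to 15.4) in replicate 1 and 14.0 TPM (11.8 to 16.0) in replicate 2, and its bounds overlapped. Srsf1-206, whose read-through sequence is shown above, was at 10.8 TPM (7.51 to 14.1) in replicate 1 and 2.01 TPM (0.904 to 3.42) in replicate 2, or 17.2% and 4.38% of the gene. The coding Srsf1-202, Srsf1-201 and Srsf1-205 held 31.6%, 18.2% and 9.79% of the gene in replicate 1 and 24.9%, 27.3% and 11.6% in replicate 2. Both transcripts typed nonsense_mediated_decay together held 2.14% of Srsf1 in replicate 1 and 1.33% in replicate 2.

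Srsf9 was almost wholly coding, with 99.8% of its TPM in protein_coding transcripts in replicate 1 and 95.9% in replicate 2. Its exons of 358 and 90 nt were included in 0% and 0.169% of the spanning TPM in replicate 1 and in 2.71% and 1.35% in replicate 2. Srsf7 is 100% coding because the tables hold a single Srsf7 transcript, Srsf7-201. The later annotation places an Srsf7 poison exon of 460 nt at chr17:80204622-80205081, minus strand, in Srsf7-203, whose level was not analysed here.

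A poison exon was defined as an internal exon within an intron of the reference coding transcript that, when inserted, leaves an exon junction more than 50 nt after the stop. The reference is the annotation's principal transcript, else that with the longest coding sequence, and not always the most abundant. Inclusion is the share of transcripts with the exact exon among all that span it. Spanning transcripts that keep the intron around the exon therefore count as not including it. Of 14 such internal exons in the 10 genes, 13 met this rule, in 8 genes, and 12 of them, in 7 genes, were in the tables. In 12 of the 13 the stop lies inside the exon itself, the exception being the Srsf2 exon after the coding sequence. The length is a multiple of 3 in 6 of the 13, the Srsf3 exon of 456 nt among them, so those would leave the frame after the exon unshifted. In all 12 with a stop inside, whatever the length, the stop does not depend on such a shift.

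**Figure D4:**
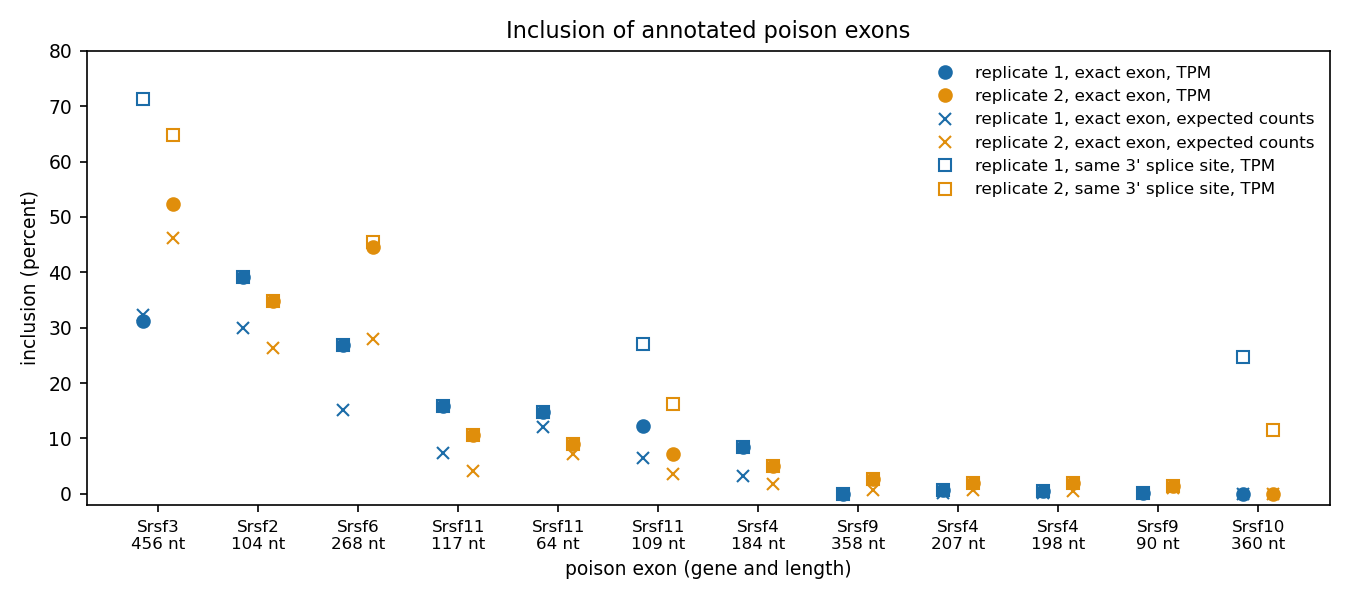
Inclusion of the 12 poison exons in the tables, in percent, for replicate 1 (blue, left) and replicate 2 (orange, right): filled circles by TPM of transcripts with the exact exon, crosses by expected counts, open squares by TPM of all transcripts entering at the same 3′ splice site. Srsf3, Srsf2 and Srsf6 have the highest values, and the open squares of Srsf3 lie far above its circles.

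Transcripts were also classed by the position of their stop, which rests less on the annotated type but not free of it. The stop came from the annotated coding sequence where there was one, and was otherwise read in the frame of the coding transcript. Of the summed SR TPM, 28.4% in replicate 1 and 28.8% in replicate 2 lay in the 21 transcripts whose stop is more than 50 nt before the last junction, the arrangement recognised by nonsense-mediated decay. Transcripts typed nonsense_mediated_decay made up 5.91% in replicate 1 and 7.75% in replicate 2. The rest lay in Srsf2-206 and in transcripts typed retained_intron, of which 7 have such a stop. Transcripts with another stop in or near their last exon, such as Srsf3-203, Srsf10-210 and Srsf5-211, made up 18.9% in replicate 1 and 11.2% in replicate 2. The stop of an annotated coding transcript closed 49.8% of SR TPM in replicate 1 and 56.5% in replicate 2. The gene with the largest share of stops far before the last junction was Srsf6, at 66.5% in replicate 1 and 65.9% in replicate 2, followed by Srsf3 at 42.6% and 60.7% and Srsf2 at 43.5% and 40.0%.

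At the level of whole genes the SR factors lay within 2-fold between the libraries. None of the 10 genes was 2-fold or more apart, against 5.64% of the 13512 genes with a mean of at least 1 TPM. At that background a list of 10 genes shows little by this count. The log2 ratio of replicate 1 over replicate 2, on the log2(TPM + 1) scale, ran from -0.18 (Srsf7) to 0.72 (Srsf5), and 7 of 10 were higher in replicate 1, against 66.5% of all those genes. The median was 0.41 for the SR genes and 0.14 for all genes. With expected counts scaled by TMM the medians were 0.05 and -0.01, and Srsf1, for example, had a ratio of 0.04 against 0.43 by TPM. TPM divides counts by effective length, so the ratio of a gene also moves with its mix of short and long transcripts. In Srsf1 the expected counts were 4205 in replicate 1 and 4742 in replicate 2. In bulk tissue, fewer cells of a type and less RNA per cell cannot be told apart.

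**Figure D5:**
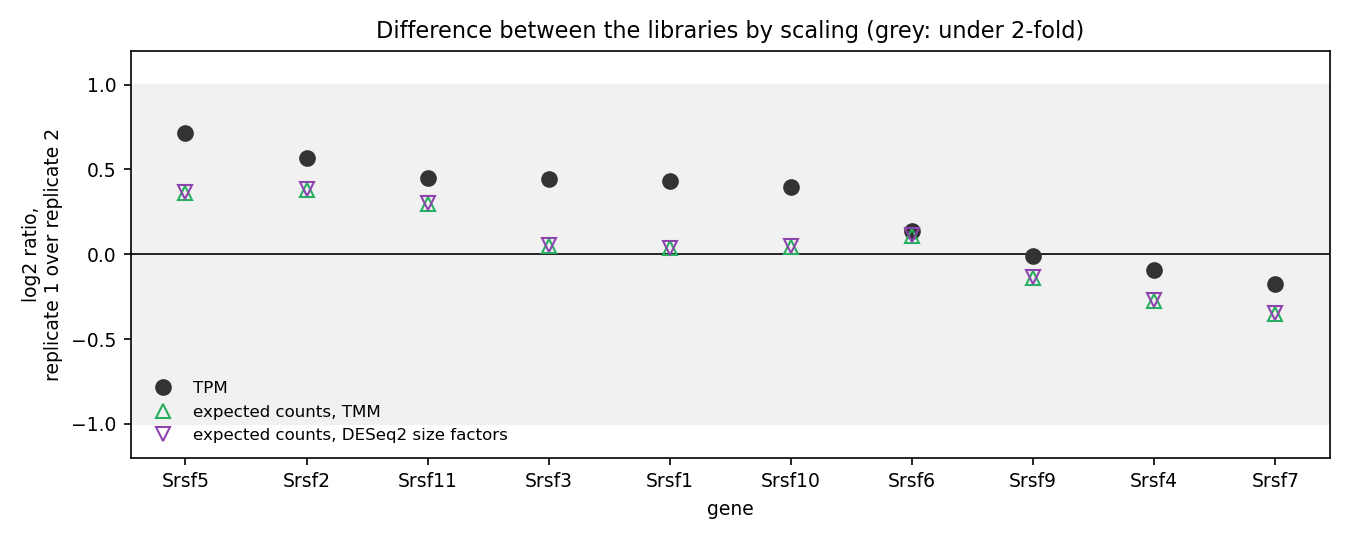
Log2 ratio of replicate 1 over replicate 2 for each SR gene by TPM (filled circles) and by expected counts scaled with TMM or DESeq2 size factors (open triangles), with the region under 2-fold in grey. No gene leaves the grey region, and Srsf1, Srsf3 and Srsf10 lie near 0 by counts and near 0.4 by TPM.

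Of 35 SR transcripts that made up at least 5% of their gene on average, 20 had deposited bounds that did not overlap between the libraries, against 47.7% of 19961 such transcripts of all genes. Of these 16 were higher in replicate 1 and 4 in replicate 2, a split that was not taken over the transcripts of all genes. The bounds cover counting and read assignment only, not biological spread. By type, 7 of 8 retained_intron transcripts had higher bounds in replicate 1, against 32.2% of such transcripts of all genes, and 4 of 19 protein_coding ones did, against 36.4%. The 4 higher in replicate 2 were the poison exon transcripts Srsf3-201 and Srsf6-201 and the coding Srsf4-202 and Srsf7-201. On the log2(TPM + 1) scale a difference of 2-fold or more was seen in 6 of the 35, against 11.5% of the background transcripts, and none of the 6 was typed protein_coding (Srsf1-206, Srsf3-203, Srsf5-211, Srsf5-206, Srsf11-206 and Srsf11-208). That background share was not split by type. By the plain ratio of TPM, Srsf4-204, Srsf6-204, Srsf10-207 and Srsf11-203 were also 2-fold or more apart. No share over all genes was taken for the plain ratio, so these are not read as particular to SR genes. By gene, the retained_intron share was higher in replicate 1 in 5 of 7 SR genes, against 68.0% of all genes with such transcripts, and the nonsense_mediated_decay share in 4 of 7, against 44.8%. The retained_intron share of Srsf1 was 38.3% in replicate 1 and 34.8% in replicate 2, and that of Srsf5 was 16.7% and 20.8%. Of 6 nuclear noncoding RNAs, Rn7sk, Neat1 and Malat1 were higher in replicate 1, and Meg3 and Xist in replicate 2. Kcnq1ot1, at 0.04 and 0.02 TPM, was too low to place. Rn7sk was at 12103 TPM in replicate 1, against 6674 TPM in replicate 2. Malat1 was at 103 TPM in replicate 1, against 49.5 TPM in replicate 2, and Neat1 at 265 and 166 TPM. Their part in the isoform differences was not tested.

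Transcripts for partners of the SR proteins were measured too. All 12 genes of the SR kinase, phosphatase and import list were above 1 TPM on average and none was 2-fold apart. Over all 13512 genes with a mean of at least 1 TPM the share was 5.64%, so a list of 12 genes shows little by this count. Ppp1ca, a catalytic subunit of protein phosphatase, was highest at 241 TPM in replicate 1, against 283 TPM in replicate 2. Of the kinases, Clk1, Clk2, Clk4 and Srpk1 have transcripts typed nonsense_mediated_decay in the tables, and Clk3, Srpk2, Srpk3, Dyrk1a and Prpf4b have none. Such transcripts made up 32.7% of Clk2 in replicate 1 and 42.7% in replicate 2, 25.8% and 26.5% of Clk1, 28.6% and 28.1% of Srpk1, and 13.4% and 5.75% of Clk4. Clk1 and Clk2 phosphorylate SR proteins in the nucleus, and Srpk1 does so mainly in the cytoplasm. Of the 15 SR-related genes 14 were above 1 TPM, led by Srrm2, a large speckle scaffold, at 314 TPM in replicate 1, against 231 TPM in replicate 2, while Srsf12 was at 0.07 and 0.01 TPM.

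All 17 genes of the decay machinery list were above 1 TPM on average. None was 2-fold apart on the log2(TPM + 1) scale, against 5.64% of all genes with a mean of at least 1 TPM. A list of 17 genes, too, shows little by this count. The kinase gene Smg1, at 10.04 TPM in replicate 1 against 4.64 in replicate 2, was 2-fold apart by the plain ratio. Smg5 was at 52.8 and 41.1 TPM, and the exon junction complex genes Eif4a3 and Magoh were at 81.8 and 38.6 TPM in replicate 1 and 85.5 and 42.4 TPM in replicate 2. The endonuclease gene Smg6 had 53.5% of its TPM in nonsense_mediated_decay transcripts in replicate 1 and 59.4% in replicate 2, and Upf1, the central helicase of the pathway, was at 25.9 and 19.5 TPM. Among 23 hnRNP genes and other splicing repressors, which often oppose SR proteins, 1 was 2-fold apart, a share near the same 5.64% background. It was Ptbp3, at 63.9 TPM in replicate 1, against 25.0 TPM in replicate 2. The median nonsense_mediated_decay share was 12.8% over the 11 repressor genes with such a transcript in the share set, 5.13% over the 11 spliceosome genes and 6.78% over the 7 SR genes. It was 26.1% over 5 genes of the kinase, phosphatase and import list, 7.35% over 6 SR-related genes and 1.81% over 3 decay machinery genes. The median retained_intron share, 18.8% in SR genes, was 30.2%, 14.1% and 19.9% in those 3 lists. It was 12.7% in the repressors and 12.0% in the spliceosome genes.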

How the data were processed

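The 2 libraries labelled large intestine had been quantified on build mm10 against GENCODE M4, per notes deposited with them; the sources used here name no aligner or quantifier. Per the file headers the authors deposited expected counts, TPM and FPKM per gene and, per transcript, TPM with lower and upper bounds (a signal whose interval level is not stated) and the percent of the gene's TPM. Expected counts are estimates and were rounded to whole numbers for scaling with edgeR 4.0.16 (TMM) and DESeq2 1.42.0 under R 4.3.3; tables and plots were made in Python 3.11.15 with pandas 2.3.3, numpy 2.4.6 and matplotlib 3.10.9.

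Names, types, exons and sequences came from GENCODE M21, matched on the identifier without its version; all 67 SR transcripts matched, but several have other lengths in M4 (Srsf3-201 is 1919 nt there and 2594 nt in M21), so exon positions are those of M21. Reading frames came from the annotated coding sequence, or were read from the coding transcript's start codon or frame. Ratios set replicate 1 over replicate 2 on the log2(TPM + 1) scale, so differences of low genes are understated. No test was possible with 1 library against 1. In a chi-square check over 17110 genes, 65.4% differed beyond the 95% counting limit, so the libraries are separate.

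The naming rule took all SR genes, their transcripts with at least 5% of the gene and the top one per type, and from other lists the 3 highest genes, those 2-fold apart and those with the highest decay shares. Not every item it took is printed. Upf1, Srsf12, Smg1, Clk4 and a few transcripts, Srsf11-212 among them, were chosen after their values were seen. The SR genes and lists were chosen with earlier results of these data known. Both computing steps, fold calls and class shares, were tested on simulated data. Simulated counts came from known genes and transcripts, so the assignment of reads between overlapping transcripts was not tested. Junction and contig lists on mm9 were not used, and no protein sequences are shown.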

Additional observations from a re-analysis of the deposited data

How the results depend on the processing

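The count of 0 SR genes 2-fold apart held under all 6 other scalings, and the count of all genes 2-fold apart (762) stayed within 1.5 times under every alternative tried. The median log2 ratio of the SR genes, 0.41, was 0.047 with expected counts scaled by TMM and 0.051 with DESeq2 size factors; Srsf6 turned from 0.14 to -0.03 with FPKM and Srsf9 from -0.01 to 0.02 without mitochondrial genes and spike-ins. The count of 4 SR genes with over 50% outside coding transcripts was 2 when only nonsense_mediated_decay and retained_intron types were counted, 3 by expected counts, and 4 by reading frame, an alternative chosen after seeing the data; it was 4 without replicate 2 and 3 without replicate 1. The median nonsense_mediated_decay share, 6.78%, was 2.53% by expected counts. The median retained_intron share, 18.8%, ranged from 20.8% to 23.0% when either replicate was left out, since a median of means over genes need not lie between the medians. Of 72 inclusion values under alternatives 9 moved by more than the SD, among them Srsf6 (35.7% by TPM, 21.5% by expected counts), Srsf2 (37.0% and 28.1%) and the same 3′ splice site values of Srsf3 (68.1%) and Srsf10 (18.1%, against 0%), also chosen after seeing the data. Causes were not tested. Depth limits the low transcripts: bounds of Srsf10-207 ran from 0.161 to 2.75 TPM in replicate 2. No paired analysis was possible because the labels give a single group.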
